A study of Mus musculus with 30 samples.

Results

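Collagen chain genes encode the alpha chains that wind around each other in the triple helix of a collagen molecule. Here they were taken as every gene in the table whose symbol reads Col, a number, a and a number. The table held 44 such genes among 16025, and 35 of them were among the 12184 genes kept by a filter on low counts. They were followed in C2C12 myotubes, which are multinucleated muscle cells formed in culture from a mouse myoblast line. The cells received a vehicle, D-galactose, 1 of 4 red ginseng preparations, or a preparation and then D-galactose.

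Fibrillar collagens assemble into the banded fibrils of the extracellular matrix, and types I, III and V are the main ones around muscle fibres. Type IV collagens form the sheet of the basement membrane that surrounds each muscle fibre, and type VI collagens form beaded filaments that link that sheet to the fibrils. Transmembrane collagens are anchored in the cell surface by a membrane-spanning segment and can be shed from it, and fibril-associated collagens (FACITs) bind to the surface of fibrils.

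There were 10 groups of 3 libraries, all from wild-type cells. The control group received vehicle, with no duration in the labels. The D-galactose group received 20 mg/mL for 24 h, a treatment used to induce cellular aging in culture. RGW was a water extract of Korean Red Ginseng, SFr its saponin fraction and NSFr its non-saponin fraction, each at 100 µg/mL for 12 h. Rb2 was ginsenoside Rb2, a saponin of ginseng, at 20 µM for 12 h. In the other 4 groups the same preparation was given for 12 h and D-galactose at 20 mg/mL for another 24 h. The preparation alone and the combination therefore carry labels that differ in time as well as in D-galactose, and the 2 cannot be told apart between them. The submitters call the libraries biological replicates, but no label says that they came from separate culture days. The p-values therefore measure the spread between libraries within groups, estimated over all 10 groups together. That spread may not cover the one between culture days. All groups come from this 1 cell line, which is a culture of muscle cells and not muscle tissue.

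Totals ran from 22209229 to 30218353 counts per library. Replicates of a group differed by more than counting noise in all 30 pairs, with a chi-square per degree of freedom of 2.48 to 13.7. The summed level of 9 myotube markers was 22118 to 22662 counts per 1000000 (CPM) in the control and 18419.6 to 19349.9 after SFr. For 6 fibroblast markers, of which decorin (Dcn) is the most abundant, it was 150.4 to 160.2 in the control and 342 to 361 after SFr, with Thy1 at no more than 0.701 CPM in any library. Markers of fat cells summed to at most 0.239 CPM and those of endothelial cells to at most 1.32 CPM in any library. The sum of 3 macrophage markers was 1.04 to 1.35 CPM in the control and 3.64 to 3.86 after SFr. After SFr plus D-galactose it was 6.13 to 6.50. Ptprc stayed at no more than 0.0407 CPM in any library, and only Cd68 of the 3 passed 0.849 CPM. The sum of 8 bone and cartilage markers was 86.0 to 89.5 in the control and 95.9 to 106 after SFr. Only Runx2 and Sox9 among these passed 0.784 CPM in any library. Of the 3 tested, 1 rose and 1 fell after SFr (21.3% of all genes higher, 21.8% lower), with a median log2 fold change of -0.238. The part of these in the collagen changes was not tested. In such bulk cultures, fewer cells of a type and less RNA per cell cannot be told apart.

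The 44 genes took 1.22% to 1.87% of all counts in a library. Their share was 1.67% ± 0.0823 (SD, n = 3) in the control, 1.34% ± 0.101 after SFr and 1.22% to 1.34% in the libraries of SFr plus D-galactose. It was 1.82% ± 0.0372 after Rb2 and 1.84% ± 0.0332 after Rb2 plus D-galactose. The libraries of both SFr groups lay below all control libraries, which ran from 1.60% to 1.76%, and those of both Rb2 groups lay above them. The 11 fibrillar genes made up most of it, with 1.26% ± 0.0488 of counts in the control. Basement membrane collagens took 0.0797% ± 0.00372 and transmembrane collagens 0.00699% ± 0.000238.

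**Figure D1:**
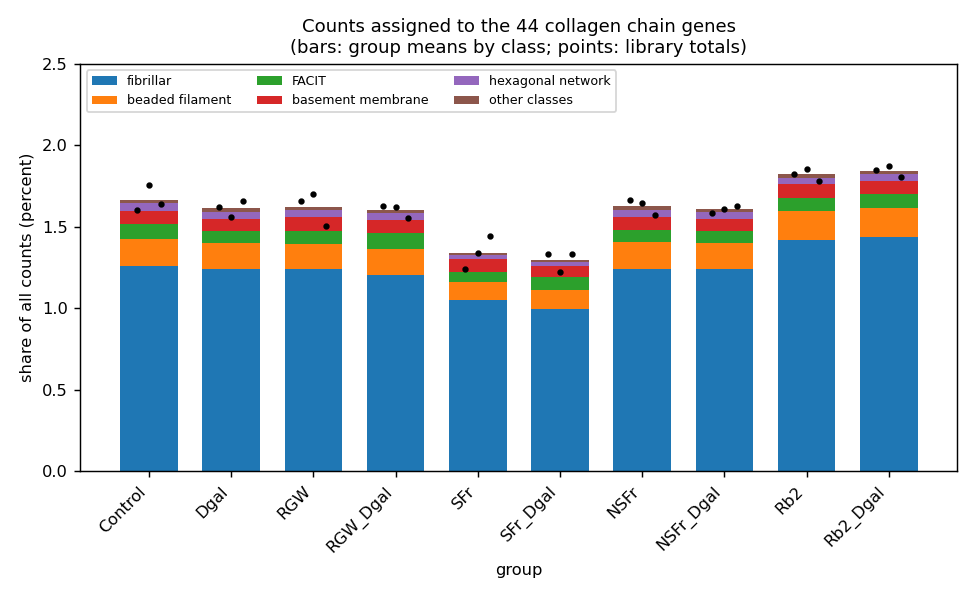
Share of all counts in percent (y axis) assigned to the 44 collagen chain genes in each of the 10 groups (x axis), stacked by class as group means, with 1 point for each library's total. The totals in both SFr groups, between 1.22% and 1.44%, lie below every other library, and those in both Rb2 groups, between 1.78% and 1.87%, lie above every other library.

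Per unit of length, the most abundant chain in the control was Col3a1, the single chain of type III collagen, at 2187 ± 103 transcripts per 1000000 (TPM, SD, n = 3, computed over the union of each gene's exons). Col1a1 and Col5a1 followed at 778 ± 61.2 and 775 ± 60.5 TPM, which did not differ beyond their spread. Col6a1 stood at 656 ± 52.3, Col1a2 at 647 ± 44.2 and Col5a2 at 507 ± 22.6 TPM, and the first 2 of these overlapped too. With the longest transcript as the length, Col1a2 moved to second place at 1129 ± 78.7 TPM and Col1a1 to 647 ± 51.6, so the order below Col3a1 depends on that choice. Col4a1 and Col4a2, the pair of the common basement membrane collagen, were at 219 ± 14.8 and 179 ± 12.0 TPM. The transmembrane genes were lower, with Col23a1 at 18.8 ± 1.09, Col25a1 at 9.58 ± 0.416 and Col13a1 at 5.23 ± 0.605 TPM.

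The 9 genes not kept were Col2a1, Col4a3, Col4a4, Col4a6, Col6a5, Col6a6, Col9a1, Col9a2 and Col9a3. They include the main cartilage collagen, the 3 chains of type IX that decorate its fibrils, and the type IV chains of specialised basement membranes such as that of the kidney. The group mean of Col2a1 was at most 0.107 CPM, and that of Col4a6, the highest of the 9 in CPM, was at most 0.221 CPM. No comparison was made for them.

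SFr moved the collagen genes most widely of the preparations given alone. After SFr, 6 of the 35 rose and 20 fell at an adjusted p under 0.05 (edgeR quasi-likelihood test, Benjamini-Hochberg over 12184 genes), where 43.1% of all genes were called (21.3% higher, 21.8% lower). The median log2 fold change of the 35 was -0.41, against 0.0005 over all genes. After RGW, 1 rose and 1 fell, where 3.21% of all genes were called (2.04% higher, 1.17% lower). After NSFr, 4 rose and 1 fell, where 8.08% of all genes were called (4.56% higher, 3.51% lower). After Rb2, 3 rose and 3 fell, where 1.53% of all genes were called (0.575% higher, 0.96% lower). D-galactose alone raised 2 and lowered 6, where 25.1% of all genes were called (11.9% higher, 13.1% lower), and this 22.9% of the members was near that share.

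Against D-galactose alone, SFr plus D-galactose raised 2 and lowered 18 members, with a median log2 fold change of -0.36, and 41.3% of all genes were called (20.3% higher, 21% lower). RGW plus D-galactose raised 4 and lowered 1, where 5.06% of all genes were called (2.52% higher, 2.54% lower). NSFr plus D-galactose raised 2 and lowered 1, where 6.33% of all genes were called (3.5% higher, 2.82% lower). Rb2 plus D-galactose raised 7 and lowered 2, where 2.26% of all genes were called (1.16% higher, 1.1% lower). The SFr comparisons without and with D-galactose share no library, and 18 members were called in both, all in the same direction, which is 69.2% of the 26 and 90% of the 20. For Rb2, 5 members were shared in the same direction, 83.3% of 6 and 55.6% of 9. The comparisons of different preparations with the control share the control libraries, and those with D-galactose share the D-galactose libraries.

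Some of the small counts rested on single libraries. The NSFr count of 5 was 1 without the control's replicate 1 and 3 without the control's replicate 2 or any single NSFr library. The NSFr plus D-galactose count of 3 was 0 without replicate 3 of that group and 1 without replicate 2 of the D-galactose group. The Rb2 plus D-galactose count of 9 was 4 without replicate 2 of the D-galactose group and 5 without replicate 1 of its own. The SFr counts stayed between 22 and 24 when any single library was left out, and those of SFr plus D-galactose between 21 and 23.

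Over 400 genes with transcripts of at least 9000 bases, the median distance from the group was at least 0.1 on the log2 scale in 3 libraries, the control's replicate 1, replicate 3 of SFr and replicate 3 of RGW plus D-galactose. With all 3 left out, called members numbered 23 after SFr, 13 after D-galactose, 4 after RGW and 2 after NSFr. These counts, and those with single libraries left out, are not set against the share of all genes called in the same fit. They show only how steady a count was.

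**Figure D2:**
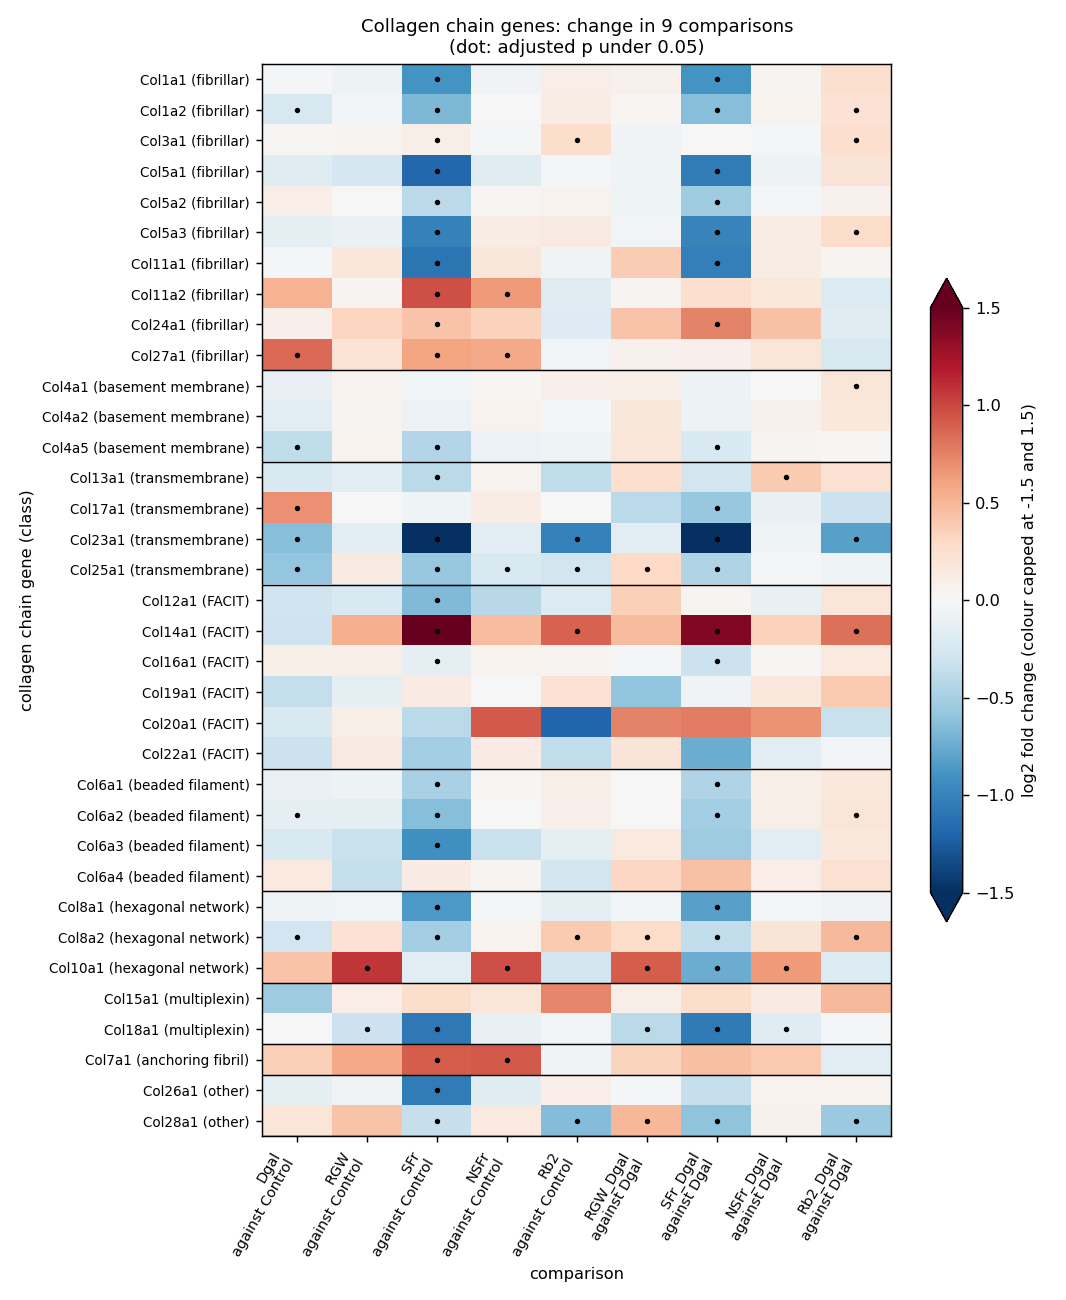
Colour map of the log2 fold change (colour scale, capped at -1.5 and 1.5) of the 35 collagen chain genes kept by the filter (rows, by class) in 9 comparisons (columns), with a dot where the adjusted p was under 0.05. The 2 SFr columns hold most of the dots, 26 and 20, and Col23a1 and Col14a1 are the members with the lowest and the highest values there.

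Among the transmembrane collagens, all 4 genes passed the filter, and Col23a1 fell the furthest of all 35 members. Col23a1 (ENSMUSG00000063564.13, chr11:51289920-51583918, plus strand, GRCm38) encodes type XXIII collagen, a cell-surface homotrimer that can be shed by proteases. Its level was 28.6, 28.9 and 31.1 CPM in the 3 control libraries, 2.90, 3.11 and 2.68 after SFr and 14.4, 15.3 and 14.2 after Rb2. The SFr libraries were lowest, at a mean of 0.0981 times the control mean, the Rb2 libraries lay between, and none of the 3 groups overlapped. The log2 fold change was -3.35 ± 0.083 (SE) after SFr (adjusted p = 5.23e-26, edgeR) and -1.01 ± 0.063 after Rb2 (adjusted p = 2.90e-13, edgeR).

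D-galactose alone took Col23a1 to 19.5, 18.7 and 18.5 CPM, below every control library, with a log2 fold change of -0.64 ± 0.063 (edgeR adjusted p = 1.87e-09). With D-galactose, the level was 2.56, 2.64 and 2.64 CPM after SFr and 9.99 to 11.1 CPM after Rb2. Both lay below all D-galactose libraries, and the changes against D-galactose alone were -2.85 and -0.82 (edgeR adjusted p = 1.10e-22 and 3.15e-09). After RGW and NSFr the level was 27.0, 26.3 and 26.0 and 23.9, 27.5 and 28.1 CPM, lower than in each control library, but neither passed the adjusted test (log2 fold change -0.16, 95% interval -0.28 to -0.038, and -0.15, -0.27 to -0.033). None of the 5 Col23a1 calls against the control or against D-galactose alone was lost in any alternative that was run.

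Col25a1, the precursor of the amyloid plaque component CLAC and a transmembrane collagen that muscle makes for motor innervation, moved with D-galactose. Its level was 33.0, 35.0 and 33.7 CPM in the control, 21.7, 21.7 and 24.2 after D-galactose and 21.0, 24.7 and 23.1 after SFr. Both treated groups lay wholly below the control, by -0.58 ± 0.070 and -0.56 ± 0.068 on the log2 scale (edgeR adjusted p = 1.05e-07 and 1.90e-08). After SFr plus D-galactose it reached 16.5, 18.4 and 14.9 CPM, the lowest of all groups. RGW plus D-galactose stood above D-galactose alone at 27.2, 27.9 and 28.5 CPM (log2 fold change 0.30 ± 0.071, edgeR adjusted p = 0.00810). The smaller changes after NSFr (-0.22) and Rb2 (-0.27) were called, and were lost in 7 and 5 of 12 alternatives, including when the control's replicate 2 or 3 was left out.

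Col17a1, the hemidesmosome collagen of epithelia, was low in these cells and rose with D-galactose from 1.01 to 1.33 to 1.61 to 1.98 CPM, with no overlap (log2 fold change 0.69 ± 0.18, edgeR adjusted p = 0.00485). It was 1.14 to 1.34 CPM after SFr plus D-galactose, below all D-galactose libraries (-0.57, edgeR adjusted p = 0.00805). Col13a1, a collagen of the neuromuscular junction, fell after SFr from 6.58 ± 0.663 to 4.93 ± 0.775 CPM (SD, n = 3; log2 fold change -0.41, edgeR adjusted p = 0.00348). Of the 4 transmembrane genes, 1 rose and 2 fell after D-galactose (11.9% of all genes higher, 13.1% lower). After SFr 3 fell (21.8% of all genes lower).

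**Figure D3:**
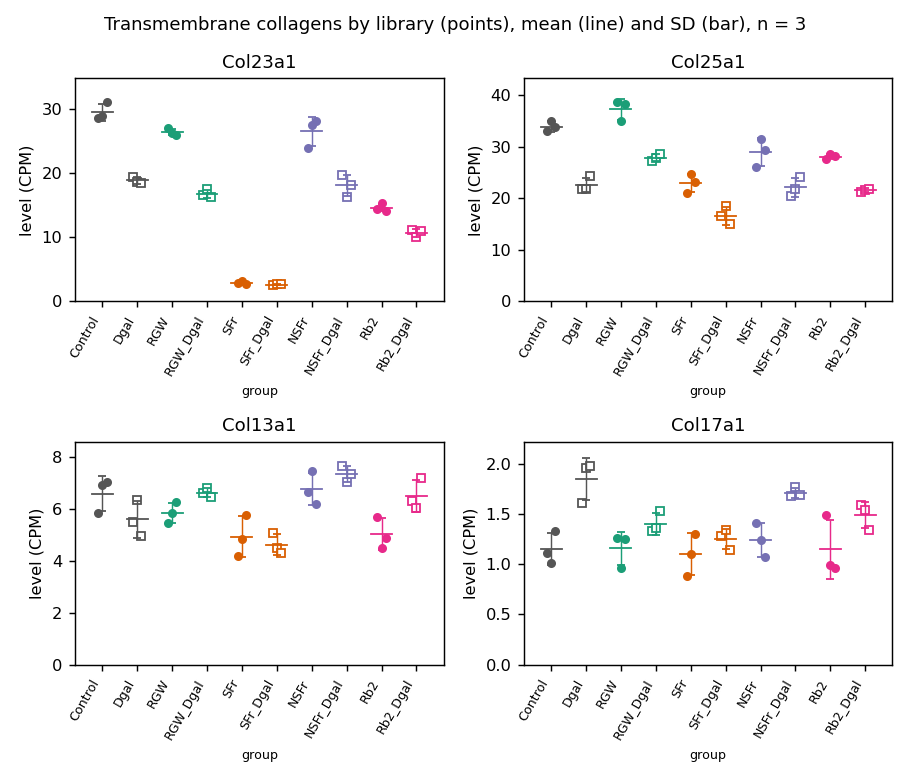
Level in CPM (y axis, from 0) of the 4 transmembrane collagen genes in the 10 groups (x axis), with points for libraries, lines for means and bars for SD (n = 3). Open squares are groups with D-galactose. Col23a1 lies between 2.56 and 3.11 CPM in the 6 SFr libraries and between 9.99 and 15.3 CPM in the 6 Rb2 libraries, below all others.

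Of the 10 fibrillar genes kept, 6 fell after SFr and 4 rose (21.8% of all genes lower, 21.3% higher). The 6 that fell were both type I chains, all 3 type V chains and Col11a1. Col5a1, the chain present in most type V molecules, which start fibril growth and limit fibril width, was 1700.5, 1932 and 1762 CPM in the control and 693, 785 and 899 after SFr (log2 fold change -1.18 ± 0.071, edgeR adjusted p = 5.85e-13). Col5a3, an alternative type V chain, went from 192, 212 and 199 to 89.0, 102 and 108 CPM (-1.01 ± 0.055, edgeR adjusted p = 7.91e-16). In both genes every SFr library lay below every control library.

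The third type V chain, Col5a2, fell less: 1289.7, 1369.6 and 1332 CPM in the control and 934, 1013 and 1073 after SFr (-0.40 ± 0.040, edgeR adjusted p = 2.45e-10). The ratio of Col5a1 to Col5a2 per length was therefore 1.49, 1.59 and 1.49 in the control libraries and 0.838, 0.876 and 0.947 after SFr, with no overlap. Length here is the union of each gene's exons, and the height of the ratio depends on that choice. Col11a1, a minor fibrillar chain that can join type V chains, was 4.35, 4.26 and 3.87 CPM in the control and 1.67, 2.05 and 2.13 after SFr (-1.10 ± 0.14, edgeR adjusted p = 6.42e-08).

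Type I collagen is built from 2 chains of Col1a1 and 1 of Col1a2. Col1a1 was 1319, 1500.0 and 1367 CPM in the control and 631, 732 and 879.9 after SFr, a log2 fold change of -0.90 ± 0.10 (edgeR adjusted p = 2.14e-07). Col1a2 was 2088, 2330.3 and 2175 and 1244, 1387 and 1509 CPM, a change of -0.67 ± 0.056 (edgeR adjusted p = 4.19e-11). For both chains the SFr libraries were the lower group throughout, and within it replicate 3 was the highest.

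Col3a1, whose product joins type I in mixed fibrils, did not share in this fall. It was 5750.3, 6130.1 and 5728 CPM in the control and 5927, 6364 and 6451 after SFr, and the groups overlapped. The log2 fold change was 0.090 ± 0.036 with an edgeR adjusted p of 0.0440. That call was lost in 7 of 12 alternatives, including those without replicate 1 or 3 of the control or replicate 2 or 3 of SFr. With D-galactose the change was -0.0075 (95% interval -0.081 to 0.066). Col3a1 and Col5a2 are neighbours on chromosome 1, in convergent orientation with a gap of 24614 bases. After SFr their 95% intervals were 0.016 to 0.16 for Col3a1 and -0.48 to -0.32 for Col5a2, on either side of 0.

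Col11a2, Col24a1 and Col27a1, fibrillar genes of low level here, stood higher after SFr. Col11a2, a chain best known from cartilage, rose from 1.85 ± 0.403 to 3.62 ± 0.344 CPM (SD, n = 3; log2 fold change 0.96 ± 0.19, edgeR adjusted p = 6.72e-05). Col27a1 rose to 4.62 ± 0.570 from 3.11 ± 0.551 CPM (0.60, edgeR adjusted p = 0.00111). D-galactose alone took Col27a1 from 2.47, 3.42 and 3.44 to 5.63, 5.09 and 5.83 CPM, with no overlap (0.85 ± 0.15, edgeR adjusted p = 4.56e-05). Col24a1 rose by 0.43 after SFr (edgeR adjusted p = 0.0229), a call lost without the control's replicate 1 or replicate 3 of SFr (adjusted p = 0.188 and 0.107), and by 0.74 after SFr plus D-galactose.

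With D-galactose present in both arms, 6 fibrillar genes fell after SFr and 1, Col24a1, rose (21% of all genes lower, 20.3% higher). The 6 were those that fell without D-galactose. The changes were -1.05 for Col5a1, -1.03 for Col11a1, -0.90 for Col1a1, -0.64 for Col1a2 and -0.53 for Col5a2 on the log2 scale. Col5a3 went from 187, 175 and 187 to 98.5, 88.9 and 86.9 CPM (edgeR adjusted p = 1.52e-15). Col1a1 went from 1317, 1324 and 1450.3 CPM with D-galactose to 809.5, 643 and 745 with SFr plus D-galactose, again without overlap. D-galactose alone lowered Col1a2 (log2 fold change -0.24 ± 0.056, edgeR adjusted p = 0.00193), while the interval for Col1a1 was -0.24 to 0.18.

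After Rb2, 1 fibrillar gene rose and 0 fell (0.575% of all genes higher, 0.96% lower). After Rb2 plus D-galactose 3 rose and 0 fell (1.16% of all genes higher, 1.1% lower). Col3a1 was 6972, 7209.6 and 6973 CPM after Rb2, above all 3 control libraries (0.26 ± 0.036, edgeR adjusted p = 1.41e-05). After Rb2 plus D-galactose it was 7217, 7012 and 7089.9 CPM, above all D-galactose libraries (0.26, edgeR adjusted p = 3.22e-05). In that comparison Col5a3 rose by 0.27 and Col1a2 by 0.22 (edgeR adjusted p = 0.00329 and 0.0294), and the Col1a2 call was lost without replicate 2 of the D-galactose group or any single library of Rb2 plus D-galactose. No fibrillar gene was called after RGW (3.21% of all genes called), and 2 of the 10 had an unadjusted p under 0.05. Col5a1, at -0.25 (edgeR adjusted p = 0.0516), became a call with DESeq2.

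**Figure D4:**
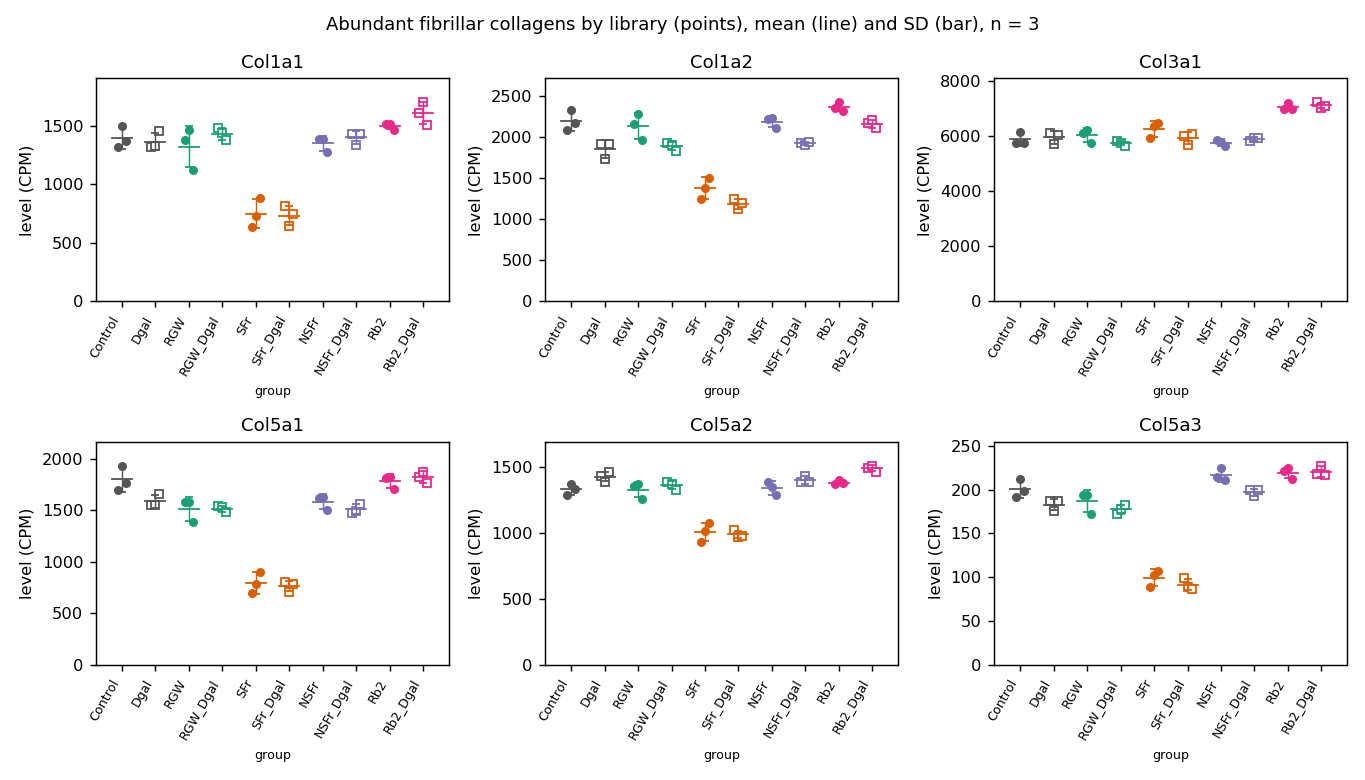
Level in CPM (y axis, from 0) of the type I, III and V collagen genes in the 10 groups (x axis), with points for libraries, lines for means and bars for SD (n = 3). Open squares are groups with D-galactose. In every panel except Col3a1 the 6 SFr libraries lie below all others, and in Col3a1 the 6 Rb2 libraries lie above all others.

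The promoters of 5 of the 20 chains that fell after SFr and of Col3a1, which did not fall, are shown. Capitals mark 5 short motifs, found by exact match on either strand. These are GGGCGG (the GC box bound by Sp1 family factors), CCAAT (bound by NF-Y), TATAAA (the TATA box), CAGAC (the Smad box) and TGACTCA (an AP-1 site), none of which overlap in these windows. Each sequence is the 250 bases before the start site annotated by RefSeq (GRCm38.p6), read 5′ to 3′ along the gene. Of the 44 members, 35 had such a window, 38 windows in all.
Col5a1 (chr2:27886175-27886424, plus strand): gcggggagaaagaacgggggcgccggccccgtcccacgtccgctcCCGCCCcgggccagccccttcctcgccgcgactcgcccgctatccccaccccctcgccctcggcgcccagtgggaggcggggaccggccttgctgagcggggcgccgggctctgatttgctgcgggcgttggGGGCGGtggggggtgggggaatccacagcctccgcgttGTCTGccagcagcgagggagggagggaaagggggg
Col5a3 (chr9:20815068-20815317, minus strand): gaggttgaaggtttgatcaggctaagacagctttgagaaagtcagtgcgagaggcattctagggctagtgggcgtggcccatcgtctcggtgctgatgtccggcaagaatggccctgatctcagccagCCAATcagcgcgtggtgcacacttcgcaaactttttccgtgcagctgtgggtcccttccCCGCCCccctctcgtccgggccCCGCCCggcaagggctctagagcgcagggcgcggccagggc
Col11a1 (chr3:114030290-114030539, plus strand): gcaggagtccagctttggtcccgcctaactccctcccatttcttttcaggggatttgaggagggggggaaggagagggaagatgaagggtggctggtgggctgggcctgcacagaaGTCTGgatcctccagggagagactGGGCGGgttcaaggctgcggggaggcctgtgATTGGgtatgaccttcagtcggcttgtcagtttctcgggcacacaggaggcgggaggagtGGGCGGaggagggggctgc
Col8a1 (chr16:57754738-57754987, minus strand): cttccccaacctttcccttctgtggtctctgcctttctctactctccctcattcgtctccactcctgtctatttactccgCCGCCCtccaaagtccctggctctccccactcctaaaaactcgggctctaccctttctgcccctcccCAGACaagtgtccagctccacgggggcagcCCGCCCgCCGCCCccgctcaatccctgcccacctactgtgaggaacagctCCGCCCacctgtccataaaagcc
Col23a1 (chr11:51289670-51289919, plus strand): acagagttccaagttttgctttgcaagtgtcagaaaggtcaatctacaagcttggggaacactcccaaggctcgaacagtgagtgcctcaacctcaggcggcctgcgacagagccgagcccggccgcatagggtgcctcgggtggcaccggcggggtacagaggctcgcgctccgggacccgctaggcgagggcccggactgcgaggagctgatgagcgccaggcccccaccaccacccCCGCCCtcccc
Col3a1 (chr1:45311288-45311537, plus strand): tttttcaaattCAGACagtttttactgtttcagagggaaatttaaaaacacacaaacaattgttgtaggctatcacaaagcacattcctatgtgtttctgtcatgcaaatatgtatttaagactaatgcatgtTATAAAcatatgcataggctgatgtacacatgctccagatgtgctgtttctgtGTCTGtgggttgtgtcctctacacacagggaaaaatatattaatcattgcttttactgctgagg

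The first 5 windows, from genes that fell after SFr, had a G and C content of 76.4%, 62.8%, 62.4%, 60.8% and 66.0% and held GGGCGG 2, 2, 2, 4 and 1 times. The Col3a1 window had a G and C content of 35.2%, no CpG, no GGGCGG and a TATAAA starting 117 bases before the start site. GGGCGG was in 22 of the 38 member windows (57.9%) and in 32.7% of 32851 windows of the same length over all genes. By response to SFr, it was in 13 of 18 windows of members that fell, 3 of 5 of those that rose and 2 of 8 of those not called. Col3a1 is among those that rose, and Col6a2 and Col18a1 each have more than 1 window. Among members that fell, Col6a1, Col6a3, Col13a1 and Col28a1 had no GGGCGG in their window. The Col28a1 window, like that of Col3a1, had no CpG, at a G and C content of 40.4%. Col4a2, not called, held it 2 times at a G and C content of 73.6%. CCAAT was in 34.2% of member windows and 33.9% of all windows, CAGAC in 44.7% and 42.2%, TATAAA in 13.2% and 12.4%, and TGACTCA in 2.63% and 4.46%. These are matches of letters in a window and no measure of binding.

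Of the 3 basement membrane genes kept, 1 fell after D-galactose (13.1% of all genes lower) and 1 after SFr (21.8% lower). In both it was Col4a5, which encodes the X-linked chain found mainly in specialised basement membranes. Col4a5 was 41.0 ± 1.82 CPM in the control (SD, n = 3), 31.4 ± 2.28 after D-galactose and 30.3 ± 1.34 after SFr. The log2 fold changes were -0.38 ± 0.060 and -0.44 ± 0.060 (edgeR adjusted p = 1.22e-05 and 1.99e-07), with no overlap between groups.

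Col4a1 and Col4a2, which together form the common type IV molecule, lie head to head on chromosome 8, and their annotated ends overlap by 22 bases. Col4a1 was 423, 472 and 444 CPM in the control and 401, 429 and 469 after SFr, and the groups overlapped (-0.044, 95% interval -0.15 to 0.058). Col4a2 was 308, 343 and 322 and 272, 302 and 344 CPM (-0.084, -0.24 to 0.069). The lower bounds of both lie above the changes of the 3 type V chains. Both became calls when the 3 libraries with shifted long transcripts were left out, at -0.13 and -0.20 (edgeR adjusted p = 0.0428 and 0.0491). With D-galactose the changes after SFr were -0.080 and -0.081, neither called. After Rb2 plus D-galactose Col4a1 rose by 0.18 (edgeR adjusted p = 0.0414), which was lost in 6 of 11 alternatives, including those without replicate 1 or 2 of the D-galactose group or any single library of Rb2 plus D-galactose.

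Type VI collagen is assembled from the chains of Col6a1, Col6a2 and 1 further chain, most often that of Col6a3. After SFr all 3 fell (21.8% of all genes lower), and Col6a4, the other type VI gene kept, did not pass the test. Col6a1 went from 730.0, 831 and 796 to 519, 555 and 613 CPM (-0.48 ± 0.052, edgeR adjusted p = 3.15e-09). Col6a2, its neighbour on chromosome 10, went from 477, 540.4 and 511 to 302, 331 and 349 CPM (-0.64 ± 0.045, edgeR adjusted p = 5.85e-14). In neither gene did the groups overlap. Against D-galactose alone, SFr plus D-galactose lowered them, to log2 fold changes of -0.45 and -0.51. In the same comparison Col6a3 was at -0.53 (95% interval -0.99 to -0.076) and was not called.

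Col6a3 and the FACIT gene Col12a1, whose product bridges fibrils in tendon and muscle, have very long transcripts and varied more between replicates than the other chains above 100 CPM. Col6a3 was 394, 524 and 379 CPM in the control and 176, 199.6 and 310.1 after SFr. Col12a1 was 833, 1106 and 782 and 441, 491 and 780.1 CPM. In both genes replicate 2 was the highest control and replicate 3 the highest SFr library. Over the 400 genes with long transcripts, the median deviation of these libraries from their group was 0.0901 and 0.117 on the log2 scale, in the same direction. In most libraries of the series, both genes deviated from their group in the same direction as that median. Among the exceptions, replicate 3 of SFr plus D-galactose stood at 0.435 for Col12a1 and 0.326 for Col6a3 with a median of -0.031. The control's replicate 3 stood at -0.188 and -0.166, with a median of 0.00325. The part of this shift in the result was not tested. The SFr change of Col6a3, -0.92 ± 0.22, had an edgeR adjusted p of 0.00173 and 0.0680 when only the 2 groups were fitted. That of Col12a1, -0.67 ± 0.24, had 0.0305, and 0.145 without the control's replicate 2.

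Among the 6 FACIT genes kept, Col14a1, which encodes a fibril-surface collagen that binds decorin, rose after SFr and after Rb2. It was 4.63, 5.35 and 5.20 CPM in the control, 13.0, 13.8 and 16.4 after SFr and 9.04, 10.0 and 8.76 after Rb2. The SFr libraries were highest, the Rb2 libraries came next, and the 3 groups did not overlap. The log2 fold changes were 1.52 ± 0.14 and 0.88 ± 0.15 (edgeR adjusted p = 7.20e-10 and 0.000973). Against D-galactose alone they were 1.38 after SFr plus D-galactose and 0.83 after Rb2 plus D-galactose, and the second call was lost without replicate 2 of the D-galactose group (adjusted p = 0.0592). Col14a1 moved alongside the fibroblast markers after SFr, whose summed level is given above, while after Rb2 that sum was 165 to 169 CPM against 150.4 to 160.2 in the control. The part of such cells in the result was not tested. Col16a1, another FACIT, fell by 0.33 after SFr plus D-galactose (edgeR adjusted p = 8.18e-06). Its call at -0.13 after SFr alone was lost in 10 of 12 alternatives, among them each single library left out. Col19a1, Col20a1 and Col22a1, all under 2 CPM, were not called against the control or against D-galactose in any group.

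Hexagonal network collagens form open lattices, and their 3 genes moved in different ways. Col10a1 (ENSMUSG00000039462.4, chr10:34389981-34397085, plus strand, GRCm38), best known from the hypertrophic cartilage of growth plates, was 2.96, 2.49 and 1.72 CPM in the control, 4.85, 4.32 and 6.24 after RGW and 4.79, 4.28 and 5.20 after NSFr. All RGW and NSFr libraries lay above all control libraries, by 1.08 ± 0.17 and 0.97 ± 0.17 on the log2 scale (edgeR adjusted p = 0.000290 and 0.000664). With D-galactose it was 3.17, 3.30 and 3.30 CPM alone, 5.78, 6.21 and 6.44 with RGW and 1.24, 2.40 and 2.25 with SFr. Here the RGW group was the highest and the SFr group the lowest, with changes of 0.91 and -0.74 (edgeR adjusted p = 0.000465 and 0.00260). NSFr plus D-galactose stood at 0.64 (edgeR adjusted p = 0.0164), a call lost without replicate 2 or 3 of the D-galactose group or replicate 3 of its own. Its exons share 18 bases with Nt5dc1 on the other strand. Its promoter is shown because its 250 bases, unlike those of most members, hold a TATAAA, 32 bases before the start site.
Col10a1 (chr10:34389731-34389980, plus strand): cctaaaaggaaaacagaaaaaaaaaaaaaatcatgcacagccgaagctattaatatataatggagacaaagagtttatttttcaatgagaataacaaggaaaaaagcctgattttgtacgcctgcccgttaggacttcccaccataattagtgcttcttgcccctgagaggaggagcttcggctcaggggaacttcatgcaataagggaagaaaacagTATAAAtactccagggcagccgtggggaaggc

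Col8a1 and Col8a2 encode the chains of type VIII collagen, found under endothelia and in vessel walls. Col8a1 was 399.8, 429 and 413 CPM in the control and 212, 228 and 241 after SFr, with no overlap (-0.87 ± 0.040, edgeR adjusted p = 9.04e-19). Against D-galactose alone it fell by 0.82 after SFr plus D-galactose (edgeR adjusted p = 6.21e-18). Col8a2 fell after SFr (-0.51, edgeR adjusted p = 1.80e-06) and rose after Rb2 (0.40, edgeR adjusted p = 0.00125). After Rb2 plus D-galactose it rose by 0.48 (edgeR adjusted p = 0.000201). Its fall after D-galactose alone (-0.29, edgeR adjusted p = 0.00639) was lost without replicate 2 of that group.

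Col18a1, a multiplexin of basement membranes whose end fragment is endostatin, was 146, 150.1 and 148 CPM in the control and 65.8, 70.8 and 74.2 after SFr (-1.07 ± 0.047, edgeR adjusted p = 2.63e-19). It was 124, 119 and 112 CPM after RGW, between the 2 and apart from both (-0.32 ± 0.046, edgeR adjusted p = 6.66e-05). With D-galactose, RGW gave 109, 112 and 113 CPM against 151, 152 and 141 with D-galactose alone (-0.41, edgeR adjusted p = 5.74e-07), and SFr gave 74.0, 70.0 and 69.1. Col15a1, the other multiplexin, was not called in any comparison.

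Col7a1, the anchoring fibril collagen, rose by 0.91 after SFr and 0.91 after NSFr (edgeR adjusted p = 0.00200 and 0.0137). Its 3 control values were 3.31, 5.19 and 6.49 CPM, with replicate 1 the lowest. Without the 3 libraries with shifted long transcripts, neither call held (edgeR adjusted p = 0.0540 and 0.1004), and without the control's replicate 1 alone the NSFr call was lost too. Col28a1, a von Willebrand domain collagen, fell by 0.60 after SFr plus D-galactose and rose by 0.50 after RGW plus D-galactose (edgeR adjusted p = 0.000556 and 0.0105), the second call being lost without replicate 1 of the D-galactose group. Col26a1 fell by 1.04 after SFr (edgeR adjusted p = 1.43e-05). Col28a1 was also lower after Rb2 (-0.65, edgeR adjusted p = 0.00891) and after Rb2 plus D-galactose (-0.56, edgeR adjusted p = 0.0211), but these calls were lost in 4 of 12 and 5 of 11 alternatives, among them those without replicate 1 of Rb2 and without replicate 1 of Rb2 plus D-galactose.

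Other calls outside the SFr groups were small or rested on single libraries. Col6a2 was at -0.14 after D-galactose and 0.18 after Rb2 plus D-galactose (edgeR adjusted p = 0.0242 and 0.0201), both lost without replicate 2 of the D-galactose group. Col8a2 was at 0.28 after RGW plus D-galactose, Col18a1 at -0.19 and Col13a1 at 0.39 after NSFr plus D-galactose. The first 2 of these calls were lost without replicate 2 of the D-galactose group and the call of Col13a1 without replicate 1. After NSFr, Col11a2 and Col27a1 were at 0.64 and 0.57, calls lost without the control's replicate 1.

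**Figure D5:**
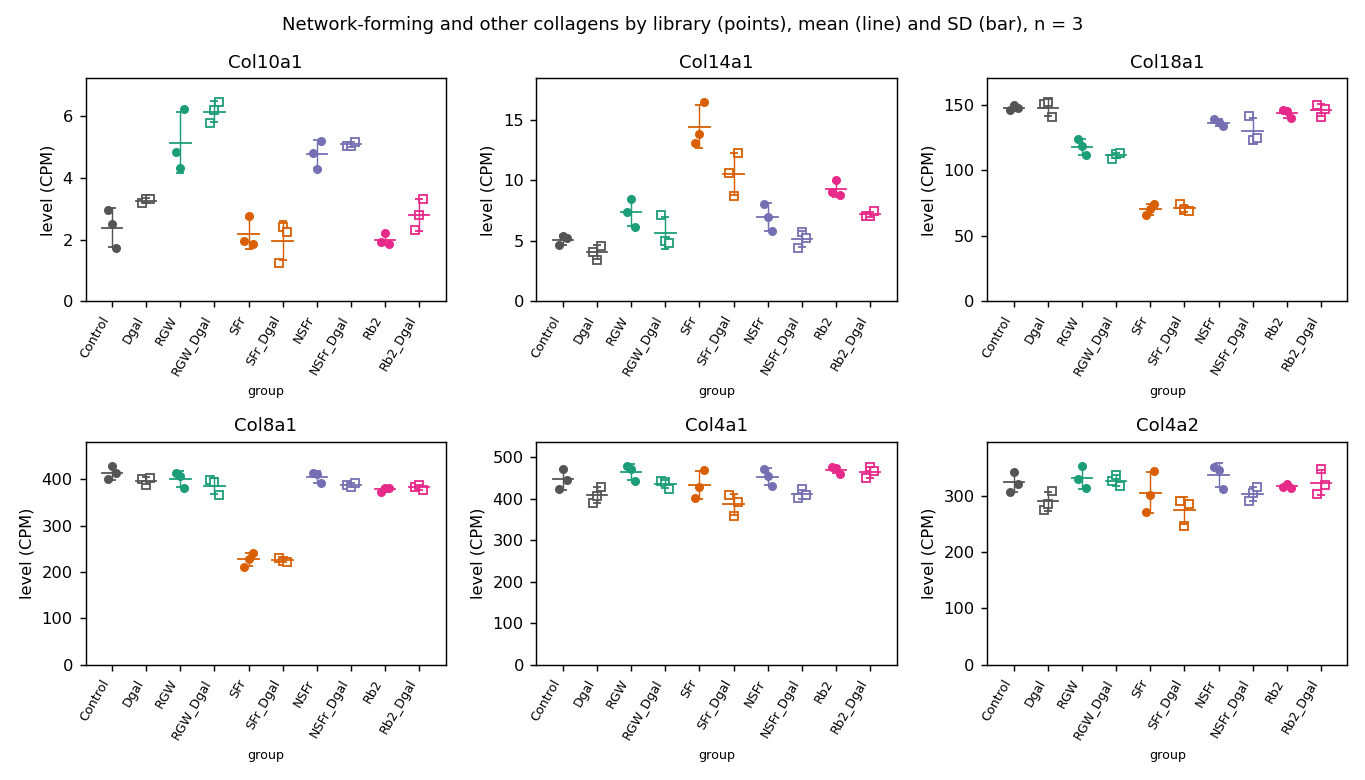
Level in CPM (y axis, from 0) of Col10a1, Col14a1, Col18a1, Col8a1, Col4a1 and Col4a2 in the 10 groups (x axis), with points for libraries, lines for means and bars for SD (n = 3). Open squares are groups with D-galactose. Col10a1 is highest in the 4 RGW and NSFr groups, Col14a1 in the SFr group, and the SFr libraries of Col4a1 overlap the control libraries.

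The saponin and non-saponin fractions were given at the same dose and time, so they can be set against each other directly. SFr gave 2 members higher and 21 lower than NSFr, where 40.4% of all genes were called (20.8% higher, 19.6% lower). With D-galactose in both arms it gave 1 higher and 20 lower, where 41% of all genes were called (20.7% higher, 20.3% lower). The largest difference was in Col23a1, at 23.9, 27.5 and 28.1 CPM after NSFr against 2.90, 3.11 and 2.68 after SFr (-3.20, 95% interval -3.37 to -3.03, edgeR adjusted p = 2.49e-25). Col20a1 differed by -1.32 at a low level, with means of 0.240 CPM after SFr and 0.605 after NSFr (edgeR adjusted p = 0.00204). Col11a1 differed by -1.27, Col10a1 by -1.13 and Col5a3 by -1.12. With D-galactose in both arms the differences were -2.79 for Col23a1, 0.096 for Col20a1 (not called), -1.14 for Col11a1, -1.38 for Col10a1 and -1.11 for Col5a3. Col14a1 was higher after SFr by 1.05. For Col4a1 and Col4a2 the differences of -0.066 (interval -0.17 to 0.036) and -0.14 (-0.29 to 0.012) did not pass the test. With the 3 libraries of shifted long transcripts left out both were called, at -0.12 and -0.23. The 2 fraction comparisons share no library, and 20 members were called in both in the same direction, 87% of 23 and 95.2% of 21.

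Rb2 at 20 µM and SFr at 100 µg/mL differ in dose unit, and no test was made between them. Side by side, against the control, Col23a1 was -1.01 after Rb2 and -3.35 after SFr, and Col14a1 0.88 and 1.52. Col5a1 was -0.015 (95% interval -0.16 to 0.13) after Rb2 and -1.18 after SFr. Col18a1 was -0.042 (-0.14 to 0.050) and -1.07, and Col8a2 0.40 and -0.51. The values for Col23a1 and Col14a1 have the same sign in both columns, and those for Col8a2 opposite signs.

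Whether a preparation altered the response to D-galactose was tested as a difference of differences. No member was called in any of the 4 tests by edgeR or by DESeq2. The share of all genes called was 0% for RGW and for Rb2. For SFr, 0.583% of all genes were called (0.213% higher, 0.369% lower), and for NSFr, 0.041% of all genes were called (0.0328% higher, 0.00821% lower). In the order RGW, SFr, NSFr and Rb2, 1, 9, 1 and 3 of the 35 members had an unadjusted p under 0.05. For Col23a1, D-galactose gave a log2 change of -0.64 on vehicle, -0.65 on RGW, -0.55 on NSFr, -0.45 on Rb2 and -0.15 on SFr. The difference after SFr was 0.50 (95% interval 0.21 to 0.79, edgeR adjusted p = 0.0944). For Col25a1 the 5 changes were -0.58, -0.42, -0.39, -0.38 and -0.47 in the same order, each with a 95% interval below 0. The difference for Col13a1 after Rb2 was 0.61 (95% interval 0.28 to 0.93), with an edgeR adjusted p of 0.787. The labelled times of these groups differ with D-galactose, as said above.

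Genes that make, export and bind collagen were counted over lists of their known roles. These counts are to be read against the share of all genes called, which was 21.3% higher and 21.8% lower after SFr, 20.3% higher and 21% lower after SFr plus D-galactose, and 11.9% higher and 13.1% lower after D-galactose. Of 14 enzymes and chaperones that modify collagen chains, 10 fell and 0 rose after SFr, and 10 fell and 0 rose after SFr plus D-galactose, with medians of -0.19 and -0.17. Serpinh1, the collagen chaperone HSP47, was at -0.41 (edgeR adjusted p = 1.56e-12), with means of 1030.2 against 1366 CPM, and P4ha2, a prolyl hydroxylase subunit, was at -0.35. After D-galactose alone 3 of the 14 rose and 5 fell, with Serpinh1 at -0.46 (edgeR adjusted p = 3.10e-12). After RGW no gene of that list was called (3.21% of all genes called), and after NSFr 1 rose and 1 fell (4.56% of all genes higher, 3.51% lower).

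Of 17 genes of export and maturation, 2 rose and 11 fell after SFr (21.3% of all genes higher, 21.8% lower). Creb3l1, a membrane-bound factor for secretory and collagen genes, was at -0.66, Pcolce2, an enhancer of procollagen cleavage, at -0.63, and Adamts2, the protease that removes the amino end of procollagen, at -0.55 (edgeR adjusted p = 3.53e-14, 1.60e-09 and 1.46e-13). Of 12 matrix proteins that bind fibrils, 4 rose and 5 fell. The small proteoglycans lumican (Lum) and decorin (Dcn) rose by 1.96 and 1.32, and fibromodulin (Fmod) was lower, at -1.23. Dcn and Lum are also among the fibroblast markers.

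Of 9 collagen receptor genes, 2 rose and 5 fell after SFr (21.3% of all genes higher, 21.8% lower). Itga1 and Itga10 encode alpha subunits of collagen-binding integrins, and they moved apart, at -1.36 and 0.99 (edgeR adjusted p = 1.76e-13 and 2.00e-11). Of 11 partners of type IV collagen in the basement membrane, 0 rose and 6 fell after SFr, among them perlecan (Hspg2) at -1.09 and the laminin chain Lamb2 at -0.43. After SFr plus D-galactose, 0 rose and 2 fell, a share near the 21% of all genes that fell. Of 16 genes of the TGF-beta axis, a main inducer of fibrillar collagen genes, 5 rose and 7 fell after SFr, with a list median of 0.037. The 4 called genes with the largest changes were all among those that fell, the ligands Tgfb2 and Tgfb3 at -0.57 and -0.53, Smad3 at -0.55 and the receptor Tgfbr2 at -0.52.

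Markers of other cell states moved in the same groups. All 12 proliferation genes fell after SFr (21.8% of all genes lower), and all 12 after D-galactose (13.1% lower), with medians of -1.25 and -1.16. After Rb2 plus D-galactose 6 rose and 0 fell (1.16% of all genes higher, 1.1% lower). After NSFr plus D-galactose 8 rose and 0 fell (3.5% of all genes higher, 2.82% lower). The summed level of 8 markers of undifferentiated or dividing myoblasts was 439 to 447 CPM in the control, 352 to 375 after D-galactose and 322 to 346 after SFr. These 8 include Mki67, Top2a, Ccna2 and Ccnb1, which mark dividing cells, and Myod1, which alone ran from 191 to 243 CPM. Of the 8, 1 rose and 4 fell after D-galactose (11.9% of all genes higher, 13.1% lower). After SFr 1 rose and 6 fell (21.3% of all genes higher, 21.8% lower). For 4 smooth muscle genes the sum was 2244 to 2385 CPM in the control. It was 2693 to 2751 after D-galactose and 1191 to 1301 after SFr. The part of these in the collagen changes was not tested.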

How the data were processed

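Poly-A RNA of 30 cultures was sequenced. The submitters' processing notes name FastQC (0.11.9), Trim Galore (0.6.10), STAR (2.7.9a), RSEM (1.3.3) and GRCm38/mm10. The table the authors deposited holds expected counts per gene, estimates that need not be whole (19.4% were not). For the annotation and for strand in counting, the setting is not given in the sources used here; per the labels' protocol the library kit is directional. Exons of 10 members overlap genes on the opposite strand.

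Counts were rounded, genes with low counts were removed with edgeR 4.0.16 (filterByExpr, limma 3.58.1), libraries were scaled by TMM (factors 0.972 to 1.04), and a robust quasi-likelihood model with 10 group means was fitted over all 30 libraries in R 4.3.3. P-values were adjusted by Benjamini-Hochberg over 12184 genes, and a call is an adjusted p under 0.05. CPM are counts in the genes kept over the library's TMM-scaled total. TPM used exon lengths of GENCODE vM21 (GRCm38), in which 16022 of 16025 symbols matched. The fit was tested on simulated data.

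Alternatives were DESeq2 1.42.0, its size factors, no filter on low counts, a replicate block, a fit of the compared groups alone, and leaving out each library. Leaving out the 3 libraries with shifted long transcripts was added after the data were seen. Values by library follow a rule: up to 14 members with an adjusted p under 0.05, a log2 fold change of at least 0.5 and groups that did not overlap, by smallest adjusted p, with their partner chains and neighbours. Those of Col4a1, Col4a2, Col7a1, Col12a1, Col17a1 and Col27a1 were chosen outside it, after their values were seen. In each list of other genes, up to 4 called genes with the largest change could be named. The members and lists were chosen with earlier results of these data known.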

Additional observations from a re-analysis of the deposited data

How the results depend on the processing

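Of 385 values (35 members in 11 pairwise comparisons), 128 were calls. Of these, 98 held in every alternative that was run, 30 were lost in at least 1, and 0 reversed; 36 of the 257 others were called in at least 1. With the 3 libraries of shifted long transcripts left out, the number of members called was 13 for D-galactose (8 before), 2 for NSFr (5) and 4 for RGW (2). DESeq2 also gave 4 for RGW, and fitting only the groups compared gave 5 for NSFr plus D-galactose (3). With each library left out in turn, counts ran from 1 to 4 for NSFr, 0 to 2 for NSFr plus D-galactose, 4 to 9 for Rb2 plus D-galactose, 22 to 24 for SFr and 21 to 23 for SFr plus D-galactose. These counts are of members only, without the share of all genes called in the same fit. The cause of the shifts was not tested.

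The replicate numbers were checked for a pairing of the libraries. In none of the 11 comparisons did all 3 same-numbered pairs deviate together with a correlation over 0.1. With 3 libraries a group, this rule cannot settle whether same-numbered libraries shared a culture day. With the number as a replicate block, the counts were 8 for D-galactose, 2 for RGW, 26 for SFr, 5 for NSFr, 6 for Rb2, 5 for RGW plus D-galactose, 21 for SFr plus D-galactose, 3 for NSFr plus D-galactose and 8 for Rb2 plus D-galactose. SFr against NSFr gave 24, and 20 with D-galactose. These counts too stand without the share of all genes called in that fit.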

Other observations

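Partner chains of the same collagen did not keep a constant ratio. The lengths used were the unions of exons, 6563 bases for Col1a1 and 12426 for Col1a2. In the longest transcripts they were 5930 and 5348 bases. The height of a ratio depends on that choice, while the order of the libraries within a ratio does not. The ratio of Col1a1 to Col1a2 per length was 1.20, 1.22 and 1.19 in the control libraries and 1.39 ± 0.0816 (SD, n = 3) after D-galactose. It was 1.21, 1.21 and 1.08 after RGW and 1.44, 1.43 and 1.42 after RGW plus D-galactose. For Rb2 it was 1.21, 1.18 and 1.19 alone and 1.40, 1.45 and 1.35 with D-galactose. For NSFr it was 1.19, 1.17 and 1.14 alone and 1.40, 1.33 and 1.40 with D-galactose. In these 4 pairs every library with D-galactose lay above every library without. After SFr it was 0.961, 0.999 and 1.10 and with D-galactose 1.23, 1.08 and 1.17, where the libraries overlapped. With 3 libraries a group no test was run on the ratio.

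The ratio of Col4a1 to Col4a2 was 1.22, 1.22 and 1.22 in the control libraries and 1.31, 1.26 and 1.21 after SFr, where the libraries overlapped. After Rb2 it was 1.31 ± 0.0186 (SD, n = 3), with every library above every control library, and after Rb2 plus D-galactose 1.31, 1.21 and 1.29, where the libraries overlapped those of D-galactose alone (1.25, 1.26 and 1.23). That of Col6a1 to Col6a2 was 2.91, 2.92 and 2.96 in the control and 3.27, 3.19 and 3.34 after SFr, without overlap.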
